A study of Mus musculus with 15 samples.

Results

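The Krüppel-like factors described here are 8 of the 20089 genes listed for mouse bone marrow-derived macrophages (BMDMs). They were chosen by name, as the entries for *Klf2*, *Klf3*, *Klf4*, *Klf6*, *Klf7*, *Klf9*, *Klf10* and *Klf13*, and each had a single entry. Their RNA levels were read in 15 samples of bulk RNA-seq, in 5 groups of 3. BMDMs are cells grown out of marrow with macrophage colony-stimulating factor (M-CSF). The cytokine RANKL (receptor activator of NF-κB ligand) turns them into osteoclasts, and lipopolysaccharide (LPS), a part of the bacterial wall, turns on inflammatory genes in them. The design used RANKL as the osteoclast stimulus and LPS as an inflammatory stimulus to set it against.

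All cells came from wild-type C57BL/6 mice and all had received M-CSF for 3 days. The Control group had M-CSF and neither stimulus. The RANKL 4 h and RANKL 3 d groups had M-CSF with RANKL for 4 hours or 3 days, and the LPS 4 h and LPS 3 d groups had M-CSF with LPS for the same times. The age of the mice that gave these libraries was not given in the labels, and neither was whether the 3 samples of a group came from separate animals, so p-values measure the spread between samples, which may in part be technical. A control with M-CSF and no stimulus for the 3 further days was not analysed here, so time under a stimulus and time in culture cannot be told apart.

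Krüppel-like factors are transcription factors that bind GC boxes and CACCC boxes in DNA through zinc fingers at their C-terminal end, and the family is usually sorted by the cofactors its members recruit. *Klf2*, *Klf4*, *Klf6* and *Klf7* belong to the branch known mainly for activating transcription, *Klf3* to the branch that recruits the corepressor CtBP, and *Klf9*, *Klf10* and *Klf13* to the branch that binds the corepressor Sin3A. In macrophages *Klf2* is known as a brake on NF-κB target genes, *Klf4* as a factor of monocyte differentiation and alternative activation, and *Klf6* as a partner of NF-κB in inflammatory gene expression.

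Promoter windows from RefSeq (GRCm38.p6, 250 bases before to 50 after the annotated start) were matched for 7 of the 8 genes, all except *Klf10*. The parts that lie before the gene's first annotated base are printed for *Klf2*, *Klf9* and *Klf13*, where a site for a stimulus-linked factor was matched, and for *Klf6*, the most abundant of the 8, where none was. Capitals mark every match, on either strand, to 8 motifs, namely the GC box (GGGCGG), the CACCC box, the AP-1 site, the core of the cAMP response element (CRE), the TATA box, the CArG box, the NF-κB site and the MEF2 site. They are written 5′ to 3′ along the gene, at chr8:72318812-72319032 (plus strand) for *Klf2*, chr13:5861239-5861481 (plus) for *Klf6*, chr19:23140976-23141225 (plus) for *Klf9* and chr7:63938916-63939165 (minus) for *Klf13*.
Klf2: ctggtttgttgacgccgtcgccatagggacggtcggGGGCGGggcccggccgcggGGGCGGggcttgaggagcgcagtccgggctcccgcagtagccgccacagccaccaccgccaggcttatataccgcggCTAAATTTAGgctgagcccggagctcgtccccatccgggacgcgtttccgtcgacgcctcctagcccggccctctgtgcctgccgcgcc
Klf6: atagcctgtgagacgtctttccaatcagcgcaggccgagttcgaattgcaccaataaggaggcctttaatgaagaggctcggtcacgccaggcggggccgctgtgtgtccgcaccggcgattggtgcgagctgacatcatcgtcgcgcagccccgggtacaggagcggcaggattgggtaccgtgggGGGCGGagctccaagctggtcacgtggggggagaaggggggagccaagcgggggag
Klf9: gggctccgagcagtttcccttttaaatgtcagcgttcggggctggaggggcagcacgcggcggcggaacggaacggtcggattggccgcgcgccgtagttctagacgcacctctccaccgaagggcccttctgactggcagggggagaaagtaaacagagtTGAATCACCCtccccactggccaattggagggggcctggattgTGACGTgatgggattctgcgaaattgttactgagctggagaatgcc
Klf13: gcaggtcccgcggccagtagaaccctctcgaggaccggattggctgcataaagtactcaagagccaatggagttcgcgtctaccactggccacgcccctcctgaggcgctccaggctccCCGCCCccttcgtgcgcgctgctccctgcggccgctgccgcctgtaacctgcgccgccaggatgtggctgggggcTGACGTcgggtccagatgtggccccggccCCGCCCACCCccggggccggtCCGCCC
The *Klf2* window held a MEF2 site from -118 to -109 relative to the RefSeq start, and 3.2% of 32851 mouse promoter windows held one. The *Klf9* window held a match to the AP-1 pattern TGANTCA, where N was any base, from -89 to -83, and it read TGAATCA. It also held a CRE core, whose letters are TGACGT, from -46 to -41, and *Klf13* held a CRE core from -56 to -51. Of all windows, 7.8% held an AP-1 match and 7.5% a CRE core. The AP-1 match in *Klf9* overlaps a CACCC box (-84 to -80) by its last bases. GC boxes were matched in 6 of the 7 windows (35.7% of all windows), with *Klf9* the exception, and CACCC boxes in 5 of 7 (57.5% of all windows). The TATA box (TATAAA), the CArG box and the NF-κB site were matched in 0 of the 7, against 13.6%, 1.6% and 8.5% of all windows. The GC content of the 7 full windows was 58.3% to 76.7%, where the median window had 52.7%.

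The fragments counted on listed genes numbered 18306184 to 20330207 per sample, as recovered from the steps of the deposited FPKM values (fragments per kilobase of exon, scaled to the sample's mapped reads). Each of the 8 factors rested on 60 to 19067 fragments in a sample. The 7 listed macrophage markers were present in every sample at 18.8 FPKM or more. RANKL 3 d was higher than Control for 9 of 10 osteoclast genes, whose summed level was 1721 to 5474 FPKM against 155 to 280, and LPS 4 h was higher for each of 10 genes of the LPS response. The LPS 3 d replicate 3 library stood apart from the other 2 of its group. The summed level of the macrophage markers was 17150 FPKM against 5797 and 7629, most of it from *Lyz2* (13800 against 3712 and 5276). Neutrophil-precursor markers summed to 1792 FPKM against 185 and 150, and 12 stromal markers to 544 against 119 and 124. In RANKL 3 d the stromal markers summed to 2025, 943 and 449 FPKM in replicates 1, 2 and 3, against 165 to 357 in Control. The median of all 11743 tested genes was at -0.52 relative to Control on the log2 scale in LPS 4 h and at 0.16 in RANKL 3 d. Differences whose call or direction it changed are therefore also given after centring each sample on its median gene (below, "centred"), since that moved the share of rises among all changed genes from 68.8% to 45.0% in RANKL 3 d against Control, from 17.5% to 55.0% in LPS 4 h against Control, from 82.1% to 45.3% in RANKL 4 h against LPS 4 h, from 64.5% to 52.2% in RANKL 3 d against LPS 3 d, from 70.6% to 45.8% in RANKL 3 d against RANKL 4 h and from 76.1% to 40.7% in LPS 3 d against LPS 4 h.

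All 8 factors passed the filter of a mean of 0.1 FPKM. A gene was counted as changed where its fold change on the log2(FPKM + 0.1) scale was above 1.5 or below 0.66 and its Benjamini-Hochberg adjusted p from limma, over the 11743 genes, was under 0.05. RANKL 4 h changed 0 of the 8 against Control (0.119% of all tested genes were changed, 14 genes, or 24 with same-numbered samples as blocks), and *Klf7* alone had an unadjusted p under 0.05 (4.96% of all genes). RANKL 3 d changed 3, all higher: *Klf4*, *Klf9* and *Klf10* (24.2% of all genes were changed, 16.6% higher). LPS 4 h changed 4 of 8, with *Klf6* and *Klf7* higher and *Klf10* and *Klf13* lower (48.1% of all genes, 8.43% higher and 39.7% lower). LPS 3 d changed 1, *Klf7*, which was higher (27.4% of all genes, 13.0% higher). None of these counts was set against chance, and in each case a member's call is read below with its own values. The median log2 fold change of the 8 was -0.14, 0.35, -0.13 and 0.10 in the 4 comparisons, beside 0.00, 0.16, -0.52 and 0.08 for all tested genes. After centring, RANKL 3 d changed 2 of 8, *Klf4* higher and *Klf6* lower (9.94% of all genes were higher and 12.2% lower), and LPS 4 h changed 5 of 8, *Klf3*, *Klf4*, *Klf6* and *Klf7* higher and *Klf10* lower (15.9% higher and 13.0% lower).

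**Figure D1:**
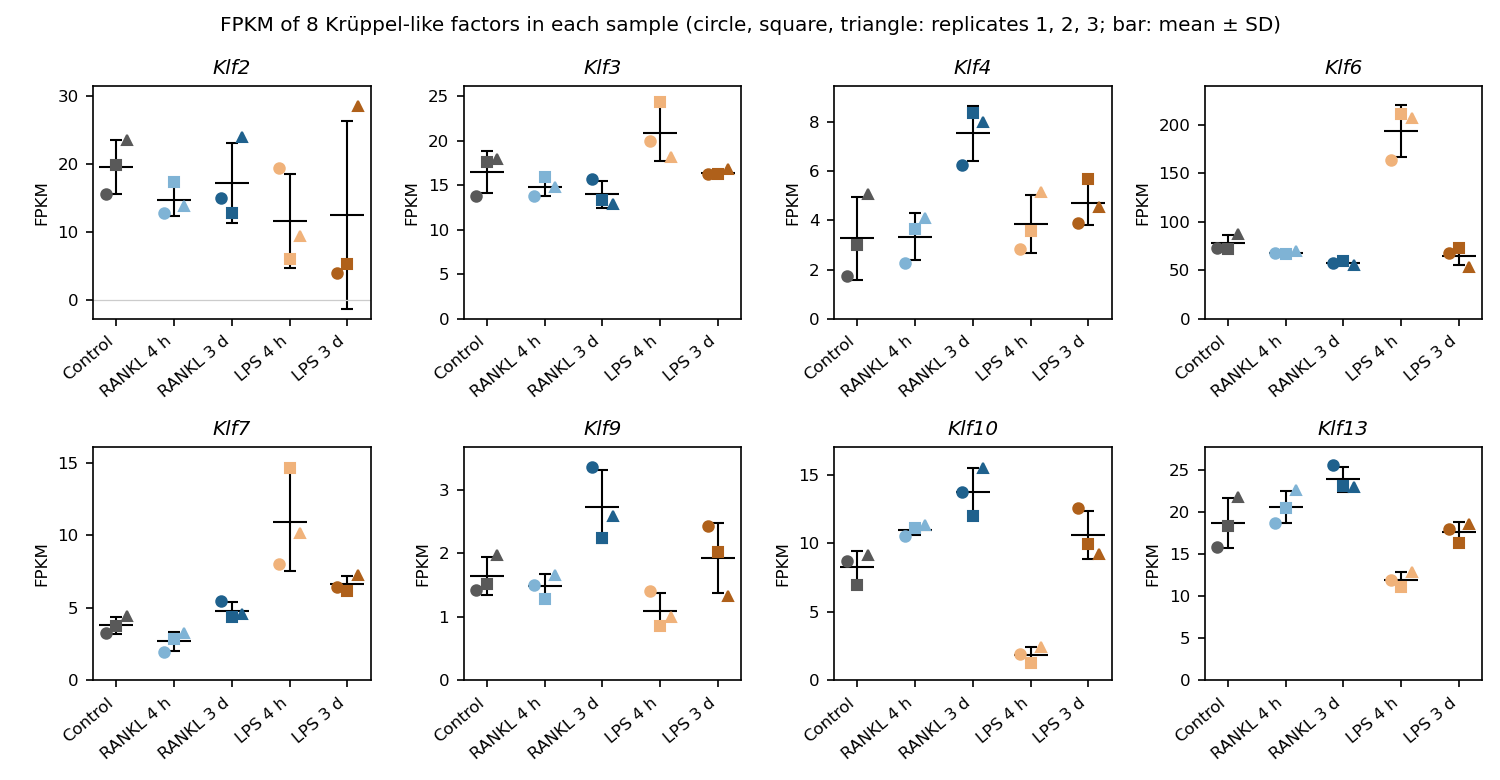
FPKM of each factor (vertical axis, linear, one panel per gene) in the 5 groups, with replicates 1, 2 and 3 as circle, square and triangle and the mean ± SD as black bars. *Klf6* and *Klf7* are highest and *Klf10* is lowest in LPS 4 h, *Klf4* is highest in RANKL 3 d, and *Klf2* spreads from 3.96 to 28.5 FPKM within LPS 3 d.

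RANKL and LPS were also set against each other at the same time. At 4 h, 4 of the 8 differed (50% of all genes), with *Klf10* and *Klf13* higher under RANKL (41.0% of all genes were) and *Klf6* and *Klf7* lower (8.98%). After centring the split was 1 higher and 3 lower (13.5% and 16.2% of all genes), as *Klf13* no longer passed (0.21) and *Klf3* did (-1.05), and limma voom gave the same split. At 3 d none of the 8 passed both thresholds in limma (36.1% of all genes did), and *Klf13* alone had an unadjusted p under 0.05 (52.8% of all genes). The count at 3 d was 1 after centring (*Klf7*), with same-numbered samples as blocks or the 2 groups alone (*Klf4*) and without LPS 3 d replicate 3 (*Klf2*), and 0 in limma voom on recovered fragments. The differences at 3 d, RANKL minus LPS on the log2 scale, ran from -0.47 for *Klf7* (95% interval -0.95 to 0.02) to 0.97 for *Klf2* (-0.27 to 2.22), and differences of more than 1.5-fold lie within the intervals of 6 of the 8.

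**Figure D2:**
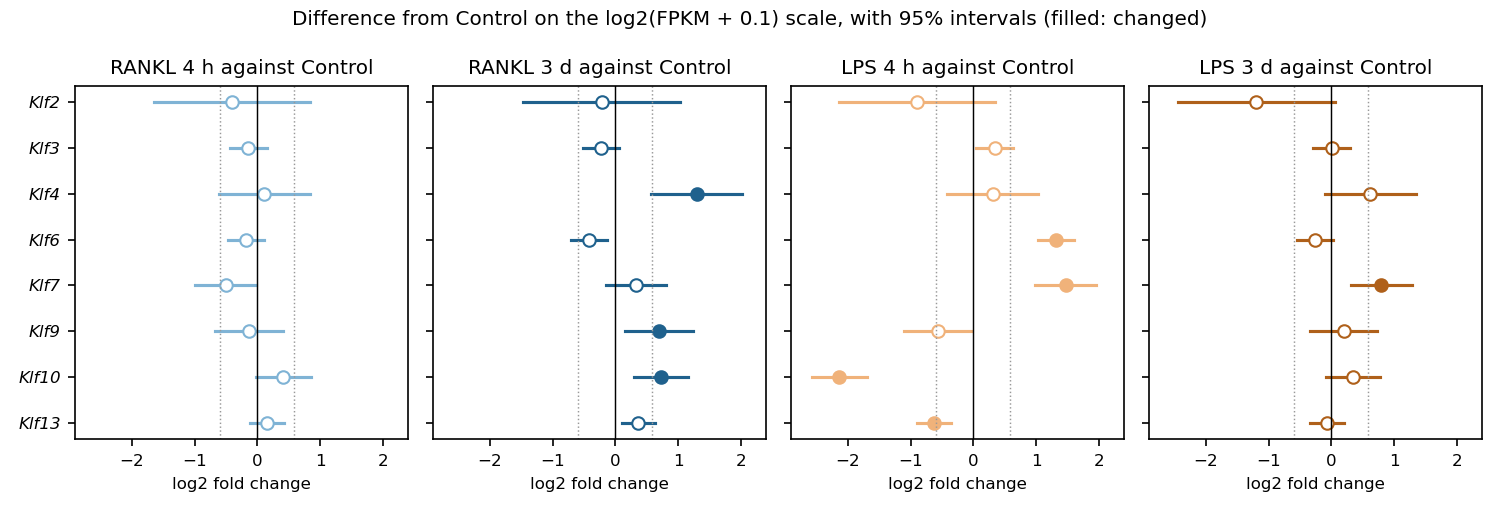
Log2 fold change of each factor against Control (horizontal axis, log2(FPKM + 0.1) scale) in the 4 stimulated groups, with 95% intervals from limma as lines, filled points for changed genes and dotted lines at the fold limits of 1.5 and 0.66. No point is filled in RANKL 4 h, and *Klf10* at -2.13 in LPS 4 h is the farthest from 0.

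*Klf6* was the most abundant of the 8 in every sample. The gene lies on chromosome 13 from 5861482 to 5870394 (GRCm38, GENCODE M21, plus strand). It had 73.2, 72.1 and 87.2 FPKM in Control, 67.7, 66.9 and 69.5 in RANKL 4 h, 57.7, 59.5 and 55.8 in RANKL 3 d, 163, 211 and 207 in LPS 4 h and 68.1, 73.1 and 53.7 in LPS 3 d (replicates 1, 2 and 3 throughout). The LPS 4 h samples all lay above every other sample, and the other 4 groups kept within 53.7 to 87.2 FPKM. *Klf6* rose 2.49-fold in LPS 4 h, or by 1.32 ± 0.13 (SE) on the log2 scale, with an adjusted p of 2.46e-06 (limma), from 77.5 ± 8.42 to 194 ± 26.5 FPKM (SD, n = 3 each). By LPS 3 d it had 65.0 ± 10.1 FPKM, which did not differ from Control beyond the thresholds (log2 difference -0.26, 95% interval -0.54 to 0.02), and it was lower than in LPS 4 h by a log2 difference of -1.58 (adjusted p = 3.98e-07). In RANKL 3 d the level was 57.6 ± 1.86 FPKM, and the difference from Control was -0.42 (adjusted p = 0.0267), inside the fold limits. After centring that difference was -0.64 and passed both thresholds, and in limma voom it was -0.58 and did not. LPS 4 h stood first in the order of levels, followed by Control, RANKL 4 h, LPS 3 d and RANKL 3 d, and no neighbours among the last 4 differed past the thresholds.

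The share of *Klf6* in the summed FPKM of the 8 factors showed the same shape within each sample, on a scale that library scaling does not touch. It was 52.1 ± 2.45% in Control, 49.85 ± 2.29% in RANKL 4 h, 40.8 ± 2.86% in RANKL 3 d, 75.5 ± 3.59% in LPS 4 h and 48.1 ± 8.54% in LPS 3 d (SD, n = 3 each). The 3 LPS 4 h samples (71.4% to 77.8%) lay above all others and the 3 RANKL 3 d samples (38.15% to 43.8%) below those of Control (50.35% to 54.9%). In LPS 3 d the shares were 51.75%, 54.2% and 38.4%, and replicate 3 was the lowest. The summed level of the 8 was 149 ± 19.5 FPKM in Control, 137 ± 6.46 in RANKL 4 h, 141.5 ± 5.34 in RANKL 3 d, 256 ± 23.7 in LPS 4 h and 135.5 ± 4.215 in LPS 3 d. *Klf10* made up 5.58 ± 0.85% of the sum in Control and 0.732 ± 0.237% in LPS 4 h, and *Klf13* 12.45 ± 0.525% and 4.70 ± 0.571%. Shares are parts of one sum, so a larger share of *Klf6* lowers those of the others even where their own levels do not change. In LPS 4 h against Control the centred log2 difference was -1.57 for *Klf10* and -0.06 for *Klf13*.

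**Figure D3:**
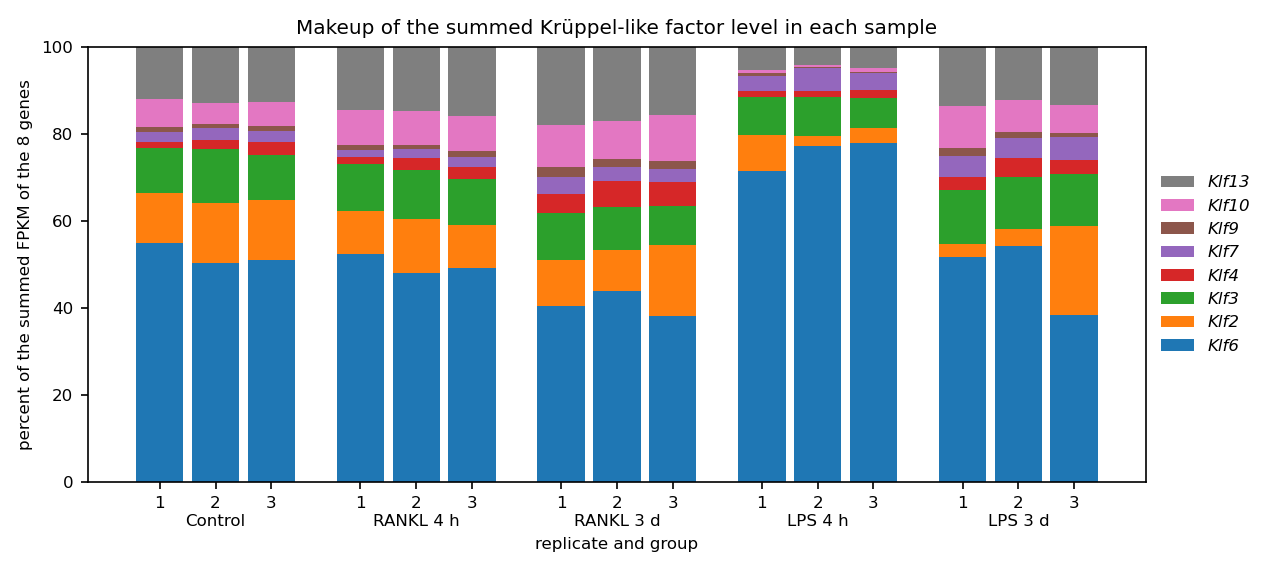
Percent of the summed FPKM of the 8 factors taken by each (vertical axis, linear from 0) in each of the 15 samples, ordered by group and replicate. *Klf6* takes 71.4% to 77.8% in LPS 4 h and 38.15% to 54.9% elsewhere, and *Klf2* takes 20.4% in LPS 3 d replicate 3 against 3.01% and 3.87% in the other 2 samples of that group.

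*Klf7*, a close relative of *Klf6* known from neurons and blood progenitors, moved with it at LPS 4 h and stayed higher at LPS 3 d. It lies on chromosome 1 from 64029447 to 64122282 (minus strand) and overlaps *Gm13748* and *Gm26649* on the other strand. Its values were 3.23, 3.76 and 4.39 FPKM in Control, 1.94, 2.86 and 3.23 in RANKL 4 h, 5.45, 4.34 and 4.55 in RANKL 3 d, 8.01, 14.6 and 10.1 in LPS 4 h and 6.44, 6.17 and 7.27 in LPS 3 d. Both LPS groups lay above every Control and RANKL sample, and LPS 4 h lay above LPS 3 d. *Klf7* rose by 1.47 in LPS 4 h (standard error 0.23, adjusted p = 9.61e-05 from limma) and by 0.80 in LPS 3 d (adjusted p = 0.01445), and it was lower in LPS 3 d than in LPS 4 h by a log2 difference of -0.67 (adjusted p = 0.0170). It was not changed under RANKL, where the differences from Control were -0.51 at 4 h (adjusted p = 0.961) and 0.33 at 3 d (adjusted p = 0.282), but these 2 groups differed from each other by 0.84 (adjusted p = 0.0139). Single libraries mattered to 3 of these calls: LPS 3 d was no longer changed without Control replicate 1 (0.69), the 2 LPS times no longer differed without LPS 4 h replicate 2 (-0.44) or LPS 3 d replicate 2 (-0.62), and the 2 RANKL times no longer differed without RANKL 4 h replicate 1 (0.63) or RANKL 3 d replicate 1 (0.74). In the order of levels the neighbours LPS 3 d and RANKL 3 d, RANKL 3 d and Control, and Control and RANKL 4 h did not differ past the thresholds.

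*Klf2* and *Klf4*, a pair of related activators, had other patterns. *Klf2* lies on chromosome 8 from 72319033 to 72321656 (plus strand), next to the stretch printed above. It had 15.6, 19.8 and 23.5 FPKM in Control, 12.8, 17.4 and 13.9 in RANKL 4 h, 15, 12.8 and 23.9 in RANKL 3 d, 19.4, 6.00 and 9.39 in LPS 4 h and 3.96, 5.21 and 28.5 in LPS 3 d. Under LPS, 4 of the 6 samples lay below every Control and RANKL sample, while LPS 4 h replicate 1 lay within the Control range and LPS 3 d replicate 3 was the highest of all 15. Against Control the log2 differences were -0.90 in LPS 4 h (95% interval -2.15 to 0.35, adjusted p = 0.196) and -1.19 in LPS 3 d (-2.44 to 0.05, adjusted p = 0.125), so *Klf2* was not changed in either. Without LPS 3 d replicate 3 the difference at LPS 3 d was -2.07 and passed both thresholds, as did -1.17 for LPS 3 d against LPS 4 h and 1.85 for RANKL 3 d against LPS 3 d. That library also carried 1102 FPKM of *Adgre1*, which encodes F4/80, against 356 and 551 in the other 2 samples, 188 FPKM of the collagen gene *Col1a1* against 27.2 and 24.0, and 4.92 FPKM of *Il6* against 27.1 and 24.2. The summed endothelial markers, another known site of *Klf2* and *Klf4* expression, were 2.41, 5.38 and 5.58 FPKM in replicates 1 to 3 of LPS 3 d. The part of other cells in this value was not tested, and in bulk samples fewer cells of a type and less RNA per cell cannot be told apart. No neighbours in the order of *Klf2* levels (Control, RANKL 3 d, RANKL 4 h, LPS 4 h, LPS 3 d) differed past the thresholds.

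*Klf4*, best known as a reprogramming factor, lies on chromosome 4 from 55527143 to 55532466 (minus strand). It had 1.74, 2.99 and 5.09 FPKM in Control, 2.26, 3.66 and 4.10 in RANKL 4 h, 6.26, 8.36 and 8.02 in RANKL 3 d, 2.83, 3.57 and 5.14 in LPS 4 h and 3.89, 5.71 and 4.56 in LPS 3 d. The 3 RANKL 3 d samples were the highest of the 15. *Klf4* rose in RANKL 3 d by 1.30 against Control (standard error 0.34, adjusted p = 0.0109 from limma) and was higher there than in RANKL 4 h by 1.18 (adjusted p = 0.0183). The Control samples themselves differed 2.92-fold, and without Control replicate 1 the difference was 0.92 and no longer passed. The difference from RANKL 4 h was not past the threshold without RANKL 4 h replicate 1 (0.93), RANKL 3 d replicate 2 (1.11) or RANKL 3 d replicate 3 (1.13). RANKL 3 d exceeded LPS 3 d by 0.67 (95% interval -0.05 to 1.40, adjusted p = 0.119), and no neighbours in the order of levels differed past the thresholds. In LPS 4 h the difference from Control was 0.31 as deposited and 0.88, past both thresholds, after centring, while limma voom gave 0.89, which did not pass. In LPS 3 d it was 0.62 (95% interval -0.10 to 1.35), and without Control replicate 3 it was 0.996 and past them. Stromal cells also express *Klf4*, and the summed stromal markers of RANKL 3 d were highest in replicate 1, where *Klf4* was lowest of the 3. Their part in the rise was not tested.

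*Klf3*, the CtBP-recruiting repressor, was the steadiest of the 8 in FPKM as deposited, with a highest to lowest ratio of 1.89 over the 15 samples. Centred differences of *Klf3* from Control ran from -0.45 to 0.90, and those of *Klf13* from -0.15 to 0.15. *Klf3* lies on chromosome 5 from 64803388 to 64832901 (plus strand), overlapped by *Gm20033* on the other strand and *C230096K16Rik* on the same strand. Its values were 13.7, 17.7 and 18.0 FPKM in Control, 13.8, 15.95 and 14.8 in RANKL 4 h, 15.7, 13.4 and 12.9 in RANKL 3 d, 20.0, 24.3 and 18.2 in LPS 4 h and 16.2, 16.2 and 16.8 in LPS 3 d. LPS 4 h lay above all other samples, but its difference from Control, 0.34 (standard error 0.14, adjusted p = 0.0458), was inside the fold limits. After centring the difference was 0.90 and passed both thresholds, as did -1.05 for RANKL 4 h against LPS 4 h and -0.98 for LPS 3 d against LPS 4 h, which were -0.48 and -0.33 and inside the fold limits before it. Against Control, RANKL 4 h differed by -0.14 (95% interval -0.43 to 0.15), RANKL 3 d by -0.23 (-0.52 to 0.06) and LPS 3 d by 0.01 (-0.29 to 0.30), so a change of 1.5-fold lies outside all 3 intervals as deposited. The RANKL 3 d difference was -0.45 after centring (limma adjusted p = 0.0132) and -0.39 in limma voom (adjusted p = 0.0285), inside the fold limits. No interval is given for either. No neighbours in the order of levels differed past both thresholds.

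Of the 3 factors of the Sin3A-binding branch, *Klf10* and *Klf13* were lower in LPS 4 h and *Klf9* and *Klf10* higher in RANKL 3 d past the thresholds. After centring, the fall of *Klf10* in LPS 4 h was the single one of these calls that passed. *Klf10*, first described as a gene induced early by TGF-β, lies on chromosome 15 from 38291463 to 38300706 (minus strand). It had 8.70, 6.97 and 9.15 FPKM in Control, 10.5, 11.1 and 11.3 in RANKL 4 h, 13.7, 12.0 and 15.5 in RANKL 3 d, 1.91, 1.26 and 2.39 in LPS 4 h and 12.6, 9.98 and 9.22 in LPS 3 d. All 3 LPS 4 h samples were far below every other sample, and all samples of the other 3 stimulated groups lay above Control. *Klf10* fell in LPS 4 h and was 4.39-fold lower than in Control, -2.13 ± 0.20 (SE) on the log2 scale with an adjusted p of 1.48e-06 (limma), and -1.57 after centring. In LPS 3 d it stood 2.48 above LPS 4 h (adjusted p = 3.39e-07) and at a log2 difference of 0.35 from Control (95% interval -0.08 to 0.78). It rose in RANKL 3 d by 0.73 (adjusted p = 0.0152), and at RANKL 4 h the difference was 0.41 (95% interval -0.02 to 0.85). The RANKL 3 d rise did not pass the thresholds without Control replicate 2 (0.61) or RANKL 3 d replicate 3 (0.64), after centring (0.51) or in limma voom (0.57). At 4 h the 2 stimuli differed by 2.55 (adjusted p = 3.00e-07), the largest difference of the 8 factors between any of the 8 pairs of groups compared. Only Control and LPS 4 h differed among neighbours in the order of levels, which was RANKL 3 d, RANKL 4 h, LPS 3 d, Control, LPS 4 h.

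*Klf13*, known from T cells as a factor that acts on *Ccl5*, lies on chromosome 7 from 63886351 to 63938915 (minus strand) and overlaps the protein-coding gene *E030018B13Rik* on the other strand. It had 15.8, 18.3 and 21.7 FPKM in Control, 18.7, 20.5 and 22.6 in RANKL 4 h, 25.6, 23.1 and 22.9 in RANKL 3 d, 11.9, 11.1 and 12.8 in LPS 4 h and 18.0, 16.3 and 18.5 in LPS 3 d. The LPS 4 h samples were the lowest and the RANKL 3 d samples the highest of the 15. *Klf13* fell in LPS 4 h, with a log2 change of -0.63 (SE 0.125, adjusted p = 0.000730 from limma), 1.545-fold lower. That fall is of the size of the median gene, and after centring the difference was -0.06. It also slipped inside the fold limits without Control replicate 3 (-0.51) or LPS 4 h replicate 2 (-0.58). RANKL 4 h exceeded LPS 4 h by 0.78 (adjusted p = 0.00013), or 0.21 after centring. In RANKL 3 d the difference from Control was 0.37 (adjusted p = 0.0390) and that from LPS 3 d 0.44 (adjusted p = 0.0113), both inside the fold limits, or 0.15 and 0.30 after centring. LPS 3 d exceeded LPS 4 h by 0.56 (adjusted p = 0.00131), just inside the fold limits, and passed them without LPS 4 h replicate 3 (0.61) or LPS 3 d replicate 2 (0.61), but its sign turned after centring (-0.09) and in limma voom (-0.04). The reading of *Klf13*, *Klf3* and *Klf7* carries the limit that counts by strand are not stated in the sources used here, so their reads and those of genes on the other strand cannot be told apart. Strand would not separate reads of overlapping genes on the same strand, *C230096K16Rik* for *Klf3*, *Mir6899* for *Klf7* and *Mir1192* for *Klf9*.

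*Klf9*, a gene induced by glucocorticoids and thyroid hormone in many tissues, was the least abundant of the 8. It lies on chromosome 19 from 23141226 to 23168134 (plus strand), at the end of the window printed above. It had 1.43, 1.52 and 1.98 FPKM in Control, 1.5, 1.28 and 1.66 in RANKL 4 h, 3.37, 2.24 and 2.60 in RANKL 3 d, 1.40, 0.857 and 0.997 in LPS 4 h and 2.43, 2.02 and 1.34 in LPS 3 d. RANKL 3 d lay above Control and both 4 h groups, while LPS 4 h overlapped RANKL 4 h. *Klf9* rose in RANKL 3 d by 0.70 (standard error 0.25, adjusted p = 0.0481 from limma) against Control and by 0.83 (adjusted p = 0.0235) against RANKL 4 h, and LPS 3 d exceeded LPS 4 h by 0.76 (adjusted p = 0.0147). Of 18 recomputations of each, these calls passed in 7, 12 and 11. The rise over Control did not pass without Control replicate 1 (0.61), Control replicate 2 (0.65), RANKL 3 d replicate 1 (0.54) or RANKL 3 d replicate 3 (0.72), nor with pseudocounts of 1 (0.49) or 0.01 (0.73), without the filter on low values (0.70), after centring (0.48) or in limma voom (0.57). The difference between RANKL times did not pass without RANKL 4 h replicate 1 (0.84) or 2 (0.74) or RANKL 3 d replicate 1 (0.67) or 3 (0.86) or after centring (0.61), and that between LPS times did not pass without LPS 4 h replicate 2 (0.62) or LPS 3 d replicate 1 (0.58) and was 0.11 after centring. In LPS 4 h the difference from Control was -0.57 (adjusted p = 0.0628), and it was -0.75 and past the thresholds without LPS 4 h replicate 1, while after centring it was -0.0018 and in limma voom -0.05. The 3.37 FPKM of RANKL 3 d replicate 1 came from the library with the highest stromal sum, 2025 FPKM, and the part of stromal cells was not tested. No neighbours in the order of levels differed past the thresholds.

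**Figure D4:**
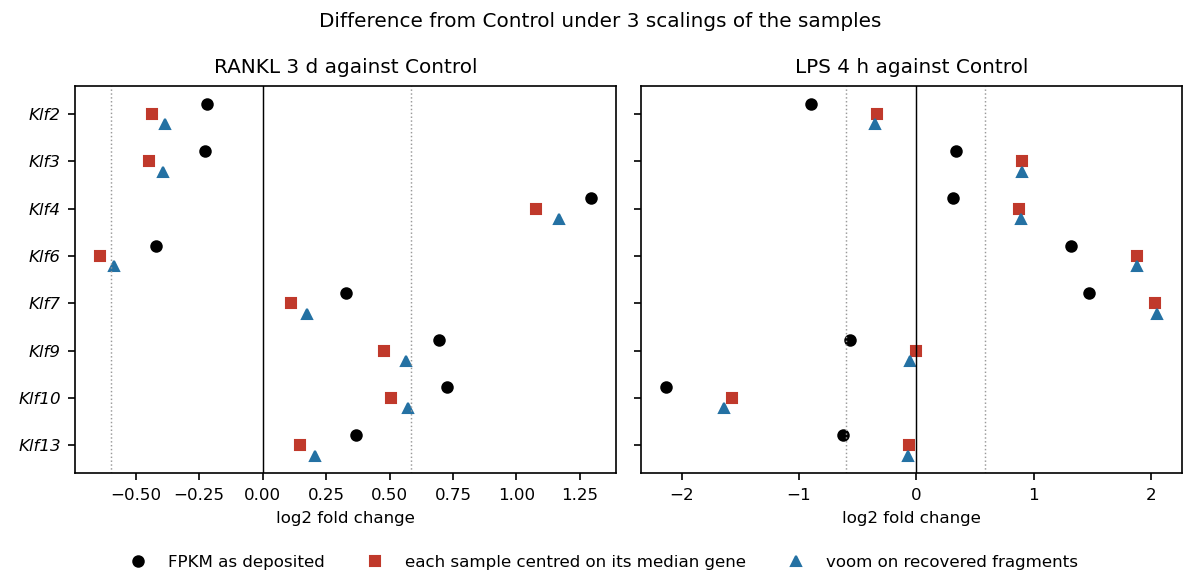
Log2 fold change against Control (horizontal axis) of each factor in RANKL 3 d and LPS 4 h, from FPKM as deposited (circles), after centring on the sample's median gene (squares) and from voom on recovered fragments (triangles), with dotted lines at the fold limits. In LPS 4 h *Klf13* moves from -0.63 to -0.06 and *Klf3* from 0.34 to 0.90 with centring, while *Klf6*, *Klf7* and *Klf10* stay past the limits in the same direction.

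Between the 2 times of one stimulus, RANKL 3 d against RANKL 4 h changed 3 of the 8, all higher (23.3% of all genes were changed, 16.4% higher), and LPS 3 d against LPS 4 h changed 4, *Klf9* and *Klf10* higher and *Klf6* and *Klf7* lower (58.1% of all genes, 44.2% higher and 13.9% lower). The median of the 8 was 0.26 and 0.01 in these comparisons, beside 0.15 and 0.52 for all tested genes. With LPS, *Klf6* and *Klf10* moved in opposite directions at 4 h and both were near Control again at 3 d, whereas *Klf7* was still higher.

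The genes whose values over the 15 samples lay closest to each factor were sought among the 9485 genes averaging 1 FPKM or more, by the mean absolute difference of log2(FPKM + 0.1) values centred on each gene's mean. A gene that varies little has small differences from many others, so the ratio of the smallest difference to the factor's own mean absolute deviation is given too. That ratio was 0.21 for *Klf10*, 0.23 for *Klf6*, 0.25 for *Klf13*, 0.30 for *Klf7*, 0.33 for *Klf4*, 0.39 for *Klf9* and 0.61 for *Klf2* and *Klf3*. In absolute terms *Klf13* had the smallest differences, at 0.069 for *Gtf3c2*, 0.071 for *Brf1* and 0.073 for *Stk38*, followed by *Klf3* (0.108 for *Rnf2*, 0.111 for *Abhd17b* and 0.12 for *Rab10*). For *Klf6* the nearest were *Ppp1r15b* (0.115), *Tlk2* (0.119) and *B4galt5* (0.122), all of them above Control in LPS 4 h by 1.18 to 1.60 on the log2 scale. *Klf10* had *Fam63b* (0.175), *Ap5s1* (0.206) and *Mblac2* (0.21), which were at -1.91, -2.13 and -2.48 relative to Control in LPS 4 h. The nearest of *Klf4* were *Cav2* (0.16), *Lamc1* (0.178) and *Plec* (0.195), which stood 1.33, 1.26 and 1.16 above Control in RANKL 3 d. *Klf7* had *Notch2* (0.176), *Mob3b* (0.183) and *Fam208b* (0.219), and *Klf9* had *Otud7b* (0.155), *Tmem41b* (0.17) and *Gucd1* (0.173). For *Klf2* the nearest, *LOC105244208*, *Gda* and *Arhgap4*, were at 0.39 to 0.397, beside a mean absolute deviation of *Klf2* itself of 0.635.

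Of the other 9 Krüppel-like factors listed, 4 (*Klf5*, *Klf8*, *Klf11* and *Klf16*) passed the filter on low values. *Klf17* was listed at 0 in every sample. *Klf8*, a CtBP-recruiting repressor like *Klf3*, had 0.213, 0.296 and 0.672 FPKM in Control and 1.94, 2.72 and 4.05 in LPS 4 h, a rise of 2.65 (adjusted p = 2.68e-05 from limma), or 3.22 after centring. *Klf16*, of the Sin3A-binding branch, had 5.78, 5.29 and 6.18 FPKM in Control and 2.87, 2.495 and 2.58 in LPS 4 h, a log2 change of -1.09 (adjusted p = 2.24e-05), which after centring was -0.52 and inside the fold limits. *Klf11*, of the same branch, was not changed against Control as deposited and was lower in LPS 3 d after centring (-0.80, adjusted p = 0.0291). *Klf5* had 1.56, 0.760 and 2.31 FPKM in Control, and fell in RANKL 3 d (log2 change -1.39, adjusted p = 0.0207) and in LPS 3 d (-2.93, adjusted p = 0.000145). The summed neutrophil-precursor markers moved the same way, from 7647 to 23100 FPKM in Control to 1788 to 7072 in RANKL 3 d and 150 to 1792 in LPS 3 d, and their part in the falls of *Klf5* was not tested. Of 9 Sp factors, the nearest relatives of the family, 5 were tested. *Sp3* fell by a log2 change of -1.06 in LPS 4 h (adjusted p = 3.74e-05), or -0.49 and inside the fold limits after centring. *Sp2* fell by a log2 change of -0.72 in LPS 3 d (adjusted p = 0.00102), and *Sp7*, the osteoblast factor osterix, rose by 1.46 in RANKL 3 d (adjusted p = 0.0389), where the stromal markers were also high. After centring the call of *Sp7* was lost (1.24).

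Among 12 cofactors that Krüppel-like factors bind, all were tested. In LPS 4 h 5 were lower and none higher (median -0.51, beside -0.52 for all genes), which is 41.7% of the list beside 39.7% of all genes. Among them were *Sin3a* (-0.81), the deacetylase *Hdac3* (-0.71), the nuclear corepressor *Ncor1* (-0.71) and *Ctbp1* (-0.69), which after centring lay between -0.25 and -0.13, inside the fold limits. The centred count was 2 higher, *Hdac1* (0.85) and *Kat2b* (0.60), and 1 lower (15.9% and 13.0% of all genes). *Sin3a* rose by 0.63 in RANKL 3 d (adjusted p = 0.00306 from limma), the single change there (24.2% of all genes changed). In LPS 3 d and RANKL 4 h 0 of the 12 changed (27.4% and 0.119% of all genes). After centring *Sin3a* was at 0.41 and not changed in RANKL 3 d, and *Ctbp1* was lower in LPS 3 d (-0.64). Of 7 genes of the ERK5 and MEF2 pathway known to drive *Klf2* and *Klf4*, 6 were lower in LPS 4 h (median -1.04, beside 39.7% of all genes lower), and 3 after centring (median -0.47, beside 13.0%). *Mef2c* fell by a log2 change of -2.05 (adjusted p = 2.74e-05), *Mapk7*, which encodes ERK5, by -1.67 (3.04e-06), *Mef2d* by -1.26 (9.997e-06) and *Map3k2* by -1.04 (0.003855). After centring *Mef2c* (-1.48), *Mapk7* (-1.10) and *Mef2d* (-0.69) still passed, and *Map3k2* (-0.47) did not. *Mef2c* had 4.02, 6.23 and 7.19 FPKM in Control, 11.8, 11.6 and 8.995 in RANKL 3 d and 1.14, 1.56 and 1.20 in LPS 4 h, and it rose by 0.92 in RANKL 3 d (adjusted p = 0.0203), while *Mapk7* fell there by a log2 change of -0.84 (adjusted p = 0.00258). After centring that rise was 0.70 and did not pass, and the fall was -1.06 and did. In LPS 3 d 2 of the 7 were higher and 1 lower (13.0% and 14.4% of all genes), and after centring too (10.3% and 16.1%). RANKL 3 d had 2 higher and 1 lower (16.6% and 7.54%), or 0 and 1 after centring (9.94% and 12.2%). RANKL 4 h changed none (0.119%).

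Of 11 genes described as Krüppel-like factor targets in other cells, 10 were tested. In LPS 4 h 3 were higher and 2 lower (median -0.19, beside 8.43% and 39.7% of all genes), or 5 and 2 after centring (15.9% and 13.0%). In LPS 3 d 6 were higher and 2 lower (median 0.80, beside 13.0% and 14.4% of all genes), or 5 and 2 after centring (10.3% and 16.1%). In RANKL 3 d 1 was higher and 5 lower (median -0.64, beside 16.6% and 7.54%), or 1 and 6 after centring (9.94% and 12.2%). *Thbd*, the anticoagulant receptor thrombomodulin and a known *Klf2* target in endothelium, fell by a log2 change of -2.54 in LPS 4 h (adjusted p = 1.45e-07 from limma) and -0.79 in RANKL 3 d (adjusted p = 0.00578). The sphingosine-1-phosphate receptor gene *S1pr1*, another *Klf2* target, fell by a log2 change of -1.40 in LPS 4 h (adjusted p = 0.00122). *Arg1*, a gene linked to *Klf4* in macrophages, rose by 2.73 in RANKL 3 d (adjusted p = 0.0149) and by 3.43 in LPS 3 d (adjusted p = 0.00334). The chemokine gene *Ccl5*, linked to *Klf13* in T cells and also on the list of LPS-response genes, rose by 3.33 in LPS 4 h and fell by a log2 change of -3.58 in RANKL 3 d (adjusted p = 0.000310 and 0.000672). *Smad7*, an inhibitor of TGF-β signalling linked to *Klf10*, rose by 1.51 in RANKL 4 h (adjusted p = 0.0449), the single change of these lists in that group. Of 5 other glucocorticoid-response genes, set beside *Klf9*, *Dusp1* rose by 3.24 in LPS 4 h, and *Tsc22d3*, *Per1* and *Fkbp5* fell there, with log2 changes of -3.06, -1.75 and -0.79, of which that of *Fkbp5* was -0.23 and not past the thresholds after centring. In LPS 3 d 2 of the 5 were higher and 2 lower (13.0% and 14.4% of all genes), and in RANKL 3 d 0 of the 5 changed (24.2% of all genes).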

How the data were processed

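Libraries of 15 samples were made with a SMARTer kit. The authors deposited FPKM per gene and sample, estimated with StringTie and Ballgown. The submitters' processing notes name GRCm38.p4 and mm10, and the aligner was not given in the sources used here. Of the table, 20089 complete entries were read, 1 incomplete entry was left out, and genes after it in the alphabetical order were not analysed here. Fragments behind the FPKM values were recovered for 14485 genes (100% of values above 0 within 0.01 of a whole number).

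Values were compared as log2(FPKM + 0.1), which understates changes of low genes, for the 11743 genes averaging 0.1 FPKM or more, with limma 3.58.1 in R 4.3.3, as 1 fit of the 5 groups with variance moderated along a trend. The scripts were tested on simulated data. The fold limits are those of the study, applied with adjusted p-values. Alternatives were a pseudocount of 1 or 0.01, no filter or a mean of 1 FPKM, equal sums, median centring, 2 groups alone, a replicate block, no trend, unadjusted p, limma voom on recovered fragments and leaving out each sample. Centring of the related gene groups was added after the data were seen. The genes named are the 8 factors, listed genes of 6 related groups that passed the thresholds (at most 4 per comparison by size) and the 3 genes nearest in pattern to each factor. *Adgre1*, *Col1a1*, *Il6* and, in LPS 4 h, *Ctbp1* were named after their values were seen, and 1 gene that the rule names is not reported here. The members, lists and rules were chosen with earlier results of these data known. Positions are from GENCODE M21 (GRCm38) and promoter sequences from RefSeq (GRCm38.p6).

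Same-numbered samples deviated together from their group means in Control, RANKL 4 h and LPS 4 h and in RANKL 3 d with Control or RANKL 4 h (correlations of 0.14 to 0.84 over 9486 genes, which are not independent replicates), as the data and not the labels show. In pairs of RANKL 3 d with LPS 4 h the correlations were 0.1 to 0.3, and in pairs with LPS 3 d -0.23 to 0.18.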

Additional observations from a re-analysis of the deposited data

Results flagged for a closer look

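Both times of a stimulus share the Control samples, so the contrast of 3 d with 4 h is a test of whether the 2 differences from Control differ. It cannot tell time under the stimulus from time in culture. Under RANKL 3 factors differed between the times. The log2 difference (3 d minus 4 h) was 1.18 for *Klf4*, 0.84 for *Klf7* and 0.83 for *Klf9* (limma adjusted p = 0.0183, 0.0139 and 0.0235), each higher in 3 of 3 samples. Under LPS 4 factors differed, by -1.58 for *Klf6*, -0.67 for *Klf7*, 0.76 for *Klf9* and 2.48 for *Klf10* (limma adjusted p = 3.98e-07, 0.0170, 0.0147 and 3.39e-07). For *Klf6*, *Klf7* and *Klf10* the 3 samples of one time all lay on one side of the other, and for *Klf9* the 3 d value of replicate 3 (1.34 FPKM) lay below the highest 4 h value (1.40 FPKM). Of the 18 recomputations of each difference, those of *Klf4*, *Klf7* and *Klf9* under RANKL passed in 15, 16 and 12, and those of *Klf6*, *Klf7*, *Klf9* and *Klf10* under LPS in 18, 16, 11 and 18. The LPS difference of *Klf9* was 0.11 after centring on the median gene (limma adjusted p = 0.682).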

How the results depend on the processing

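The 8 counts of changed factors and 51 single values were recomputed under 12 alternatives and without each sample. *Klf6*, *Klf7* and *Klf10* stayed changed in LPS 4 h against Control in all 18 recomputations each (log2 fold changes of 1.25 to 1.88, 1.24 to 2.06 and -2.33 to -1.57). Of the single values, 562 recomputations under the 12 alternatives kept their direction and their side of the thresholds, 24 fell below them, 20 rose past them and 6 turned their sign, and without a sample the numbers were 264, 23, 7 and 12. None of the values that turned was a called one.

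The count for RANKL 3 d against Control was 1 in place of 3 in limma voom, and 1 to 3 without a sample. For LPS 3 d against Control it was 2 in place of 1 with the replicate block, which added *Klf4*, and 0 to 2 without a sample. For RANKL 3 d against LPS 3 d it was 1 in place of 0 with the replicate block or the 2 groups alone (*Klf4*, 0.67) and after centring with or without the block (*Klf7*, -0.60), and 0 to 1 without a sample. In pairs with LPS 3 d the correlations of same-numbered samples were -0.23 to 0.18, and the labels do not say whether they share an animal or batch. The basis of the block is therefore weak there, and it changed no call of the 8 factors in the other comparisons as deposited. Without a sample the count was 0 to 3 for RANKL 3 d against RANKL 4 h, 2 to 5 for LPS 3 d against LPS 4 h and 3 to 5 for LPS 4 h against Control. Among all genes, RANKL 4 h against Control changed 14, with 0 from the 2 groups alone, 3 with no trend, 24 with the block and 301 by unadjusted p. That count was 3 or 2 without Control replicate 2 or 3, and 6, 1 and 2 without RANKL 4 h replicates 1, 2 and 3. Centring gave 3400 in place of 5650 in LPS 4 h against Control (3388 in voom) and 3485 in place of 5872 in RANKL 4 h against LPS 4 h (3465 in voom).

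Signs turned for *Klf3* in LPS 3 d against Control (-0.0752 after centring, with or without the block, and -0.036 in voom) and for *Klf13* in LPS 3 d against LPS 4 h (-0.091 after centring, with or without the block, and -0.043 in voom). Without a sample they turned within the ranges of -0.26 to 0.49 for *Klf4* and -0.22 to 0.00 for *Klf9* in RANKL 4 h against Control, -0.063 to 0.68 for *Klf4* in LPS 4 h against Control, -0.12 to 0.076 for *Klf3* and -0.18 to 0.048 for *Klf13* in LPS 3 d against Control, -0.39 to 0.052 for *Klf4* in RANKL 4 h against LPS 4 h and -1.17 to 0.24 for *Klf2* in LPS 3 d against LPS 4 h. The causes were not tested. With 3 samples in a group, an exact permutation test cannot go below 0.1, and differences of *Klf2* under LPS are limited by the spread of its samples.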
